A study of Homo sapiens with 34 samples.

Results

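This report describes 48 genes of the kinetochore, the spindle checkpoint and the mitotic kinases in human B-cell acute lymphoblastic leukemia (B-ALL) cell lines after loss of cyclin D3 or inhibition of its kinases. The genes were chosen by name, and all 48 were listed in all 6 deposited expression tables, which have 13307 genes in common. They were read in 6 functional classes: 14 constitutive centromere genes, 3 CENP-A deposition genes, 16 outer kinetochore genes, 7 spindle checkpoint genes, 6 genes of mitotic kinases and the chromosomal passenger complex, and 2 centriole genes (PLK4 and CENPJ, which act at centrioles and not at the kinetochore).

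The kinetochore is the protein assembly that ties each chromosome to spindle microtubules during mitosis. Its base is chromatin marked by the histone H3 variant CENP-A, on which the constitutive centromere-associated proteins sit throughout the cell cycle. In mitosis they recruit the outer kinetochore, whose NDC80 complex binds microtubules, and the spindle checkpoint, which delays anaphase until chromosomes are attached. Aurora and Polo-like kinases drive and correct these steps. Many of these genes are transcribed mainly in the G2 and M phases, through E2F and CHR promoter elements read by the RB-family, MuvB, B-MYB and FOXM1 complexes, and D-type cyclins with CDK4 or CDK6 act upstream of this control.

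RNA sequencing covered 34 samples in 12 groups, made from 3 B-ALL cell lines. NALM-6 carries ETV6-PDGFRB, RS4;11 carries the fusion MLL-AF4, and the third line, BV-173, has BCR-ABL. Cells carried either an shRNA against CCND3 or a scrambled shRNA, both delivered by a lentiviral vector with a TagRFP marker, with transduced cells isolated on day 4 after transduction, or they were treated for 3 days with 1 µM palbociclib, a CDK4/6 inhibitor, or with its solvent DMSO. Groups held 3 samples each, except the CCND3 shRNA group of NALM-6 and the DMSO group of BV-173, which held 2. The knockdown and the drug thus had separate controls in each line. The tables give 1 level per group, pooled over its samples by the authors on a normalized count scale. The way they pooled the samples is not known here. No value thus has an SD within a line, and the depth per sample is unknown. Levels were scaled within each pair of groups, so levels of different pairs are not on 1 scale. A change is given as the log2 ratio of treated over control level within 1 table, and the test run on these levels took the 3 lines as replicates: limma's moderated test of the mean of the 3 log2 ratios, two-sided, with Benjamini-Hochberg adjustment over all 13307 genes. Called genes had an adjusted p below 0.05 together with a mean change of 1.5-fold or more. This p-value measures the spread between lines, not between cultures. Each SE given is limma's moderated SE, which also draws on the spread of other genes of similar level. It can be smaller than the plain SE of the 3 ratios. For the gene CENPA after palbociclib it was 0.71, where the SD over the lines was 2.12. In bulk RNA, fewer cells in mitosis and less of each transcript per cell cannot be told apart.

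CCND3 itself (gene ID 896, chr6:41934933-42050035, GRCh38.p14) was read first as a check on the knockdown labels. Its level was 19499 with the scrambled shRNA and 4727 with the CCND3 shRNA for NALM-6, 16178 and 3353 for RS4;11, and 6619 and 2060 for BV-173. The log2 ratios were -2.04, -2.27 and -1.68, lower in 3 of 3 lines (moderated SE 0.13, adjusted p = 0.00555). Palbociclib gave a mean of -0.35 (SE 0.13, adjusted p = 0.126). The lines were also read for markers of their lineage. Of the B-lineage markers, PAX5, a transcription factor of B-cell identity, had levels from 7880.1 to 17673 over the 12 groups, and CD79A, a chain of the B-cell receptor complex, from 1870.5 to 21607. Of 5 T-lineage markers 2 to 4 were listed in a table, and they summed to at most 7.70. The 5 myeloid markers summed to between 92.8 and 1168, with LYZ the most abundant in NALM-6 and CSF1R or ITGAM in the other lines. CD79A was called higher after palbociclib (mean log2 ratio 1.13, SE 0.23, adjusted p = 0.0285) and CD22 after knockdown (1.04, SE 0.16, adjusted p = 0.0189). The markers PAX5, EBF1, DNTT and RAG1 had palbociclib means of -0.34, -0.40, -0.51 and -0.37, and CD79B and VPREB1 had 0.19 and 0.48, none of them called under either treatment. Over all 9 B-lineage markers the median of the mean log2 ratios was 0.01 after palbociclib and 0.12 after knockdown. The part of these markers in the results on the kinetochore genes was not tested.

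Palbociclib lowered most of the apparatus. Of the 48 genes, 43 were called lower and 0 higher over the 3 lines, against 8.38% of all genes called lower and 5.14% called higher. At an unadjusted p under 0.05 limma counted 45 of the 48, a threshold for which no share of all genes is given. The median of their mean log2 ratios was -2.56, a 5.89-fold fall, against 0.04 over all genes. The deepest falls were those of HJURP (-4.17), the chaperone that deposits CENP-A, NUF2 (-4.08), a subunit of the NDC80 complex, and CENPA (-4.03). The 5 genes that were not called were CENPT (0.10), MAD1L1 (0.26), PMF1 (-0.37), CENPC (-0.52) and CENPP (-1.38). The call depended on the lines and on the variance prior: 8 of the 48 genes were called without NALM-6, and 25 without the trend of the prior on level. Calls over all genes, in either direction, fell too. They numbered 301 without NALM-6 and 836 without the trend, against 1799 with all lines and the trend.

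Knockdown of CCND3 also lowered most of the genes, with a smaller median fall. Here 38 of the 48 were called lower and 0 higher, against 3.73% and 1.32% of all genes. At an unadjusted p under 0.05 limma counted 44 of the 48, with no share of all genes given at that threshold. The median of the mean log2 ratios was -1.08, a 2.11-fold fall, against 0.00 over all genes. The lowest mean was that of CENPK (-1.78), and the highest was that of MAD1L1 (0.13). The 10 genes not called were the 5 named above with CENPW, MIS18A, NSL1, MIS12 and BUB3. This count rests on the prior more than the count for palbociclib. Without the trend of the prior, limma called 0 of the 48 genes and 0 of all genes. With a pseudocount of 10 it also called 0 of the 48 and 0 of all genes. Under both settings 44 of the 48 had an unadjusted p under 0.05, again without a share of all genes. Without RS4;11 it called 21 of the 48. Over all genes, in either direction, it then called 281, against 673 with all lines and the trend.

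**Figure D1:**
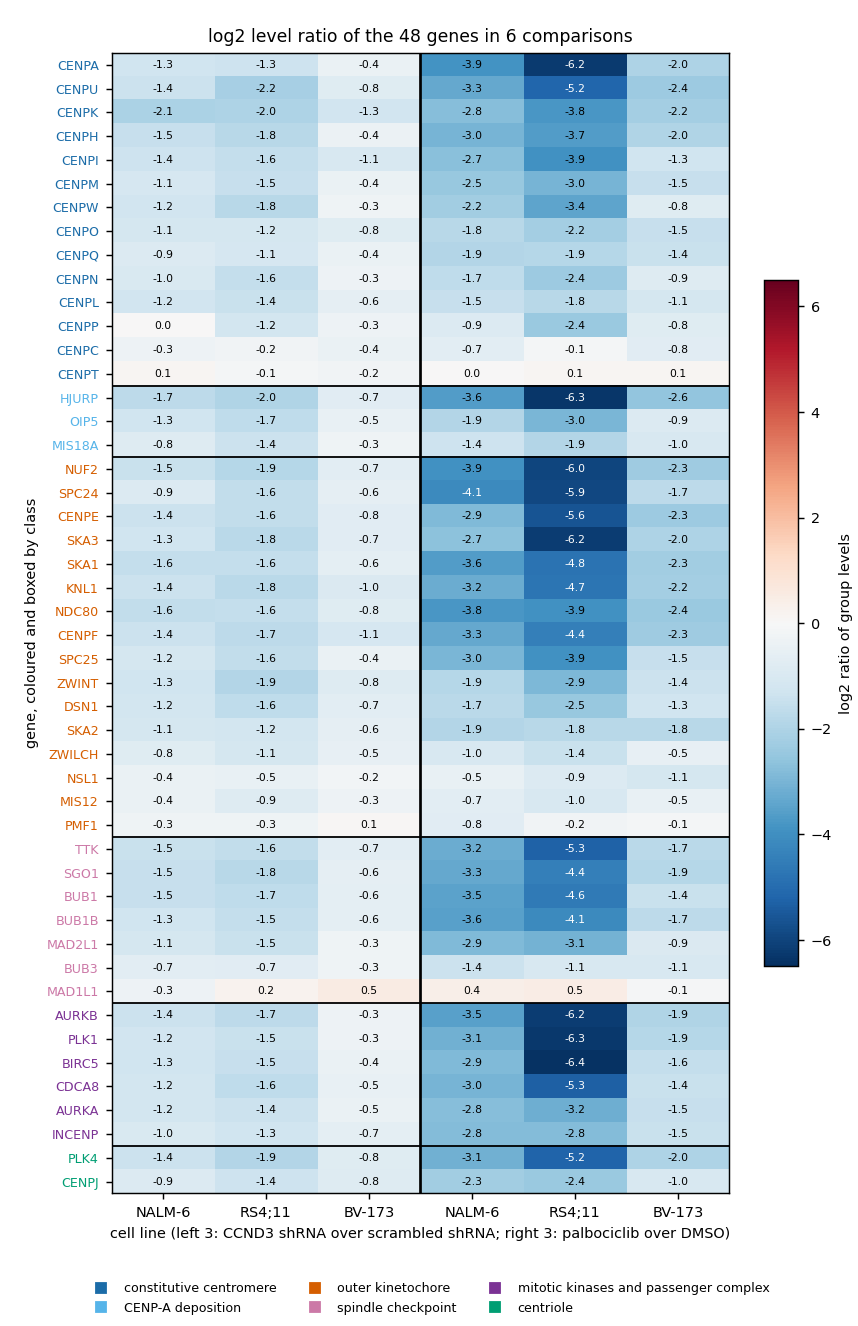
Each cell gives the log2 ratio of treated over control level for 1 of the 48 genes (rows, boxed by class and sorted within it by mean palbociclib ratio) in 1 of the 6 comparisons (columns; 3 lines after CCND3 shRNA on the left, 3 after palbociclib on the right). The palbociclib columns are darker than the knockdown columns, RS4;11 reaches -6.42 (BIRC5), the row of CENPT stays near 0, and that of MAD1L1 holds values on both sides of 0, from -0.33 to 0.53.

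The drug and knockdown were also compared with each other, as the knockdown ratio less the palbociclib ratio within each line. The treatments differed in time, 3 days of drug against day 4 after transduction, and the knockdown left part of the CCND3 RNA in each line. What these contribute to the difference was not tested. This difference was called for 32 of the 48 genes, all with the lower ratio after palbociclib, against 3.32% of all genes called in that direction. None was called in the other direction, against 1.22% of all genes. Its median was 1.35 on the log2 scale, and the largest values were those of CENPA (3.01, SE 0.55, adjusted p = 0.0303) and SPC24 (2.91, SE 0.52, adjusted p = 0.0295). The smallest sizes were those of MAD1L1 (-0.12), ZWILCH (0.16) and CENPT (-0.18), none of them called. Palbociclib gave the lower ratio for 47 of the 48 genes for NALM-6, 44 for RS4;11 and 46 for BV-173. The count fell to 15 without NALM-6 and to 0 without the trend of the prior. Over all genes, in either direction, 211 were called without NALM-6 and 0 without the trend, against 605 with both. Without the trend, 41 of the 48 had an unadjusted p under 0.05, also without a share of all genes.

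**Figure D2:**
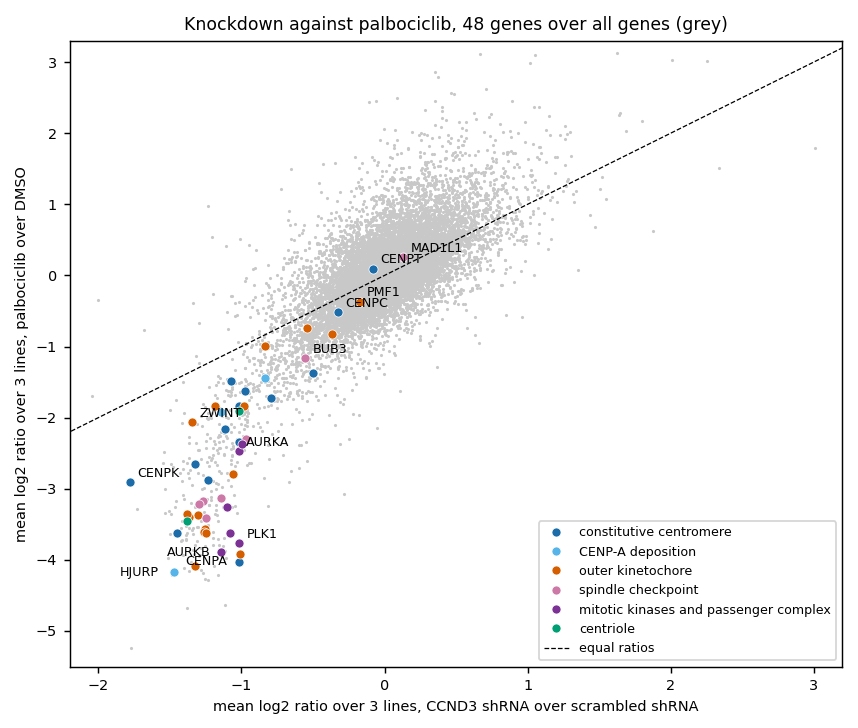
Mean log2 ratio over the 3 lines after CCND3 shRNA (horizontal) and after palbociclib (vertical) for the 48 genes, coloured by class, over all 13307 genes in grey. The dashed line marks equal ratios: most of the 48 lie below it, with knockdown means down to -1.78 and palbociclib means down to -4.17, while CENPT and MAD1L1 lie within the dense part of the grey cloud.

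How far the genes fell is given by line as a description, and differences between lines were not tested. In NALM-6, 45 of the 48 were at least 1.5-fold lower after palbociclib, against 14.9% of listed genes, with a median log2 ratio of -2.76. In RS4;11, 44 were, against 15%, with a median of -3.54. In BV-173, 43 were, against 11.9%, with a median of -1.48. RS4;11 had the lowest median, and it had the lowest of the 3 ratios for 39 of the 48 genes, and 18 of the 48 were left at 5% or less of their DMSO level, as were 106 of all 15857 listed genes. In the other lines 0 of the 48 reached that depth, against 6 of 15614 listed genes in NALM-6 and 0 of 14797 in BV-173. BV-173 had the highest ratio for 43 of the 48.

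After knockdown the medians again had RS4;11 lowest and BV-173 highest, while the counts were in another order than after palbociclib. The number at least 1.5-fold lower was 41 for NALM-6 (8.47% of listed genes), 43 for RS4;11 (9.72%) and 21 for BV-173 (4.78%). The median log2 ratios were -1.23, -1.56 and -0.55. BV-173 had the highest ratio for 45 of the 48 genes, and its count is sensitive to the fold used, with 3 genes at 2-fold and 39 at a fold minimum smaller than 1.5. None of the 48 was 1.5-fold higher in any comparison, where the share of listed genes that were was 7.82%, 9.73% and 3.32% after knockdown and 21.4%, 16.7% and 13.6% after palbociclib, in the same order of lines. Among genes with a level of at least 100, the share that was 1.5-fold lower ran from 4.502% (BV-173 knockdown) to 18.2% (NALM-6 palbociclib). The 48 genes all had a mean level over the groups above 100. In BV-173 CENPW was below 100 in both groups of a pair, at 97.5 with DMSO and 55.7 with palbociclib. Single levels of other genes were also below 100, such as 88.0 for CENPP in BV-173 and 8.36 for CENPA in RS4;11, both with palbociclib.

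How far each gene moved was also compared between lines. Across the 48 genes, which are not independent replicates, Spearman's rho of the palbociclib ratios was 0.86 between NALM-6 and RS4;11, 0.82 between NALM-6 and BV-173, and 0.78 between RS4;11 and BV-173. For the knockdown ratios it was 0.81, 0.61 and 0.57 for the same pairs. Knockdown and palbociclib ratios within a line, from separate controls, gave 0.76 for NALM-6, 0.69 for RS4;11 and 0.61 for BV-173.

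The constitutive centromere class spanned nearly the whole range of palbociclib means, from -4.03 for CENPA to 0.10 for CENPT. CENPA encodes the histone that marks the centromere. Its level went from 1075 with DMSO to 73.8 with palbociclib for NALM-6, from 623.9 to 8.36 for RS4;11, and from 611.9 to 153.8 for BV-173, which left 6.87%, 1.34% and 25.1% of control. Its mean log2 ratio was -4.03 (SE 0.71, adjusted p = 0.0188). After knockdown it went from 680.2 to 280.3, from 306.5 to 120.8 and from 470.6 to 350.1, a mean of -1.02 (SE 0.21, adjusted p = 0.0358). All 3 lines were lower under both treatments, and the share of control left was smallest in RS4;11 each time.

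CENPT sits in the same class and links centromeric DNA to the NDC80 complex. Its level was 1251 with DMSO and 1291 with palbociclib for NALM-6, 778.7 and 845.4 for RS4;11, and 760.8 and 829.8 for BV-173. The mean log2 ratio was 0.10 (SE 0.12, adjusted p = 0.623), and after knockdown -0.08 (SE 0.12, adjusted p = 0.731). CENPC, which bridges CENP-A chromatin to the outer layer, went from 1133 to 700.0, from 868.7 to 804.6 and from 793.6 to 470.7 with palbociclib. Its mean of -0.52 was not called (SE 0.17, adjusted p = 0.0951), nor was its knockdown mean of -0.33 (adjusted p = 0.141). CENPT and CENPC thus stayed within 2-fold of control in all 6 comparisons.

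The rest of the class lay between these ends. CENPU, a subunit of the group that docks PLK1, fell by a mean log2 ratio of 3.62 with palbociclib (SE 0.48, adjusted p = 0.00995) and left 2.80% of control in RS4;11. CENPK, a partner of CENPH and CENPI, had the lowest knockdown mean of all 48 genes (-1.78, SE 0.19, adjusted p = 0.0176), with ratios of -2.06 for NALM-6, -2.02 for RS4;11 and -1.26 for BV-173. In RS4;11 the ratio of CENPU was lower, at -2.18. CENPH, CENPI, CENPL, CENPM, CENPN, CENPO and CENPQ were called lower under both treatments, with palbociclib means from -2.88 (CENPH) to -1.48 (CENPL). CENPW, the histone-fold partner of CENPT, was called lower after palbociclib (-2.16, adjusted p = 0.0331) and gave -1.12 after knockdown (adjusted p = 0.0602). CENPP differed between lines. Its knockdown ratio was 0.02 for NALM-6, -1.17 for RS4;11 and -0.34 for BV-173, and it was not called under either treatment.

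The 3 genes that load CENP-A all fell after palbociclib, with the lowest mean for HJURP. HJURP went from 4124 to 338.0 for NALM-6, from 984.2 to 12.1 for RS4;11 and from 1391 to 234.5 for BV-173, a mean of -4.17 (SE 0.65, adjusted p = 0.0137). Set beside its client CENPA, its knockdown ratio was lower in each line, at -1.73 against -1.28 for NALM-6, -1.96 against -1.34 for RS4;11 and -0.73 against -0.43 for BV-173. After palbociclib this did not hold in every line, with -3.61 for HJURP against -3.86 for CENPA in NALM-6, -6.35 against -6.22 in RS4;11, and -2.57 against -1.99 in BV-173. OIP5 (MIS18B) and MIS18A, which together mark the centromere for loading, had smaller palbociclib means of -1.92 (adjusted p = 0.0278) and -1.44 (adjusted p = 0.0108). After knockdown HJURP (-1.47, adjusted p = 0.0189) and OIP5 (-1.15, adjusted p = 0.0369) were called, and MIS18A gave -0.84 (adjusted p = 0.0509).

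In the outer kinetochore 15 of 16 genes were called lower after palbociclib and 13 of 16 after knockdown. The 4 subunits of the NDC80 complex fell to unequal depths. NUF2 went from 1641 to 106.6 for NALM-6, from 1335 to 1.58% of that level for RS4;11 and from 983.1 to 196.7 for BV-173 (mean -4.08, SE 0.62, adjusted p = 0.0127). NDC80, its dimer partner, left 7.28%, 6.55% and 18.9% of control in the same lines, nearly equal shares in NALM-6 and RS4;11. SPC24 and SPC25, which form the other end of the complex, had palbociclib ratios of -4.12 and -2.95 for NALM-6, -5.94 and -3.93 for RS4;11, and -1.70 and -1.50 for BV-173. After knockdown the same pair gave -0.88 and -1.16, -1.59 and -1.59, and -0.56 and -0.44 in that order of lines.

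The MIS12 complex, which joins the inner to the outer kinetochore, behaved less evenly. PMF1 had a level of 1006 with DMSO and 593.2 with palbociclib for NALM-6, 1152 and 973.8 for RS4;11, and 461.9 and 428.1 for BV-173. It was called under neither treatment (palbociclib mean -0.37, adjusted p = 0.19, and knockdown mean -0.17, adjusted p = 0.464). MIS12 (-0.74, adjusted p = 0.0345) and NSL1 (-0.83, adjusted p = 0.0245) passed for palbociclib with small falls. DSN1, the remaining subunit, fell by a mean of 1.84 on the log2 scale after palbociclib and by 1.19 after knockdown, both called. KNL1, the scaffold for the checkpoint proteins, which binds this complex, had a palbociclib mean of -3.39 (SE 0.43, adjusted p = 0.00924).

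The other outer genes included motors, linkers and large coiled-coil proteins. CENPF, a large coiled-coil protein of the outer corona, had the deepest knockdown mean of this class at -1.38 (SE 0.13, adjusted p = 0.0176), and went from 6920.5 to 693.0, from 6879 to 321.0 and from 6071 to 1222 with palbociclib, in the order of lines used above. SKA1 (-3.56), SKA3 (-3.61) and the kinesin CENPE (-3.62) had palbociclib means near that of KNL1. SKA2, in the same complex as SKA1 and SKA3, had a mean of -1.84 with nearly equal ratios in the lines, -1.90, -1.80 and -1.81. ZWINT (-2.06), which binds KNL1, and ZWILCH (-0.99), a subunit of the RZZ complex, were also called lower.

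**Figure D3:**
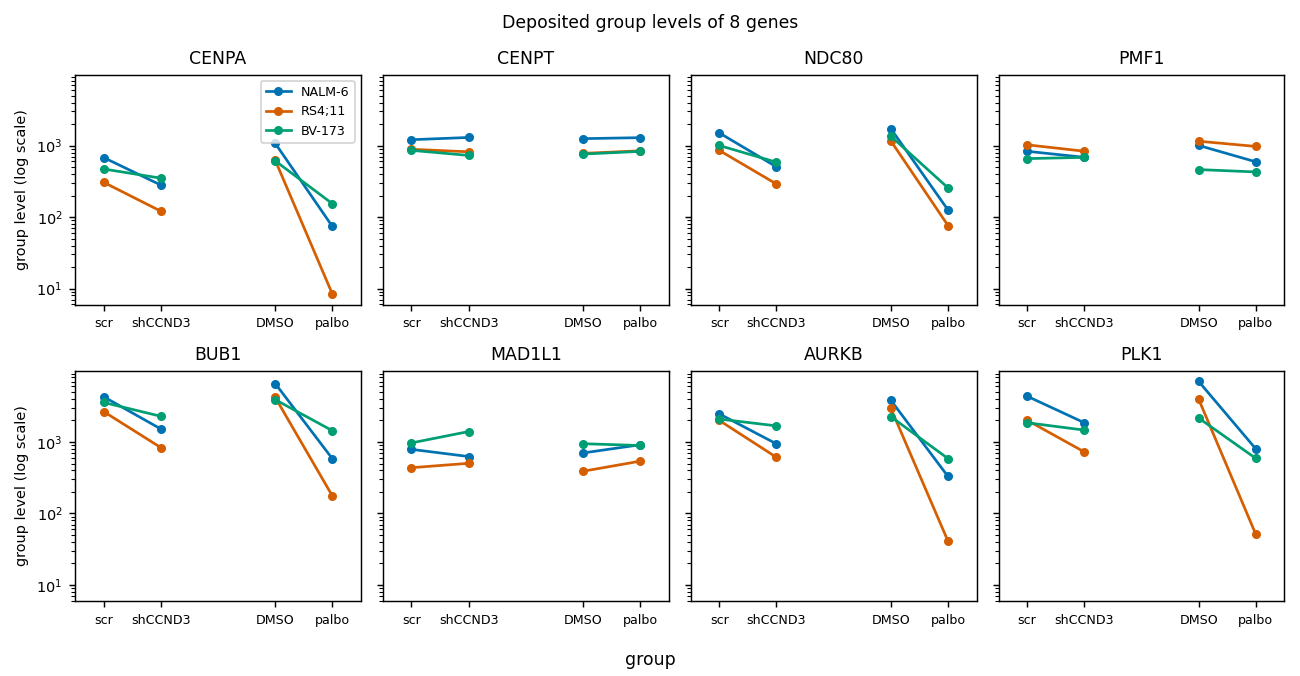
Group levels on a log scale for 8 genes, with a line from control to treated group for each cell line, scrambled to CCND3 shRNA on the left and DMSO to palbociclib on the right of each panel. CENPA, NDC80, BUB1, AURKB and PLK1 fall steeply with palbociclib, with CENPA at 8.36 in RS4;11, while CENPT runs nearly flat. PMF1 goes from 1006 to 593.2 in NALM-6 with palbociclib, and MAD1L1 from 971.2 to 1400 in BV-173 after knockdown. Levels within a pair are on the same scale. Those of different pairs were normalized separately.

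Of the 7 checkpoint genes, 6 were called lower after palbociclib and 5 after knockdown. TTK, the kinase MPS1 that starts checkpoint signalling, left 10.5% of its DMSO level for NALM-6, 2.61% for RS4;11 and 30.2% for BV-173 (mean -3.41, SE 0.59, adjusted p = 0.0178). SGO1, which protects sister chromatid cohesion, had the deepest knockdown mean of the class (-1.29, SE 0.23, adjusted p = 0.0241) and a palbociclib mean of -3.21. The related kinases BUB1 and BUB1B (BUBR1) moved almost together. Their palbociclib ratios were -3.50 and -3.55 for NALM-6, -4.58 and -4.12 for RS4;11, and -1.44 and -1.73 for BV-173, and their knockdown means were -1.27 and -1.14. MAD2L1, the checkpoint effector that binds CDC20, had a palbociclib mean of -2.30.

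BUB3 and MAD1L1 stood at the other end of the class. BUB3, the WD-repeat partner of both BUB kinases, had the highest mean level of all 48 genes (5334) and went from 7413 to 2837, from 6927 to 3341 and from 7346 to 3517 with palbociclib. This fall was of similar size in the lines and was called (mean -1.17, SE 0.13, adjusted p = 0.00773). After knockdown its mean of -0.55 had an adjusted p of 0.0356 and a size of 1.47-fold, just under the fold required. MAD1L1 anchors MAD2 at unattached kinetochores. With palbociclib its level was 914.4 against 702.6 with DMSO for NALM-6, 539.3 against 389.8 for RS4;11, and 893.5 against 946.8 for BV-173, a mean of 0.26 (SE 0.16, adjusted p = 0.322). After knockdown the lines went different ways, with log2 ratios of -0.33 for NALM-6, 0.20 for RS4;11 and 0.53 for BV-173.

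All 6 genes of the mitotic kinases and passenger complex were called lower under both treatments. PLK1, which acts from mitotic entry to cytokinesis, went from 7045 to 800.8 for NALM-6, from 3981 to 51.0 for RS4;11 and from 2165 to 589.9 for BV-173 with palbociclib (mean -3.77, SE 0.75, adjusted p = 0.025). Knockdown took it from 4374 to 1861, from 2017 to 726.8 and from 1859 to 1468 (mean -1.02, SE 0.20, adjusted p = 0.0313). PLK4, its centriole-duplicating relative, had the same palbociclib ratio in NALM-6 (-3.14 for each) and a smaller fall in RS4;11 (-5.22 against -6.29).

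The Aurora kinases parted in RS4;11. AURKB, the kinase of the passenger complex, went from 3839 to 329.4, from 2959 to 41.0 and from 2265 to 586.2 with palbociclib, in the same order of lines (mean -3.89, SE 0.71, adjusted p = 0.02). AURKA, the spindle pole kinase, went from 3225 to 472.8, from 1798 to 199.4 and from 1397 to 502.7 (mean -2.47, SE 0.31, adjusted p = 0.00924). The ratio of AURKA exceeded that of AURKB by 0.77 for NALM-6, 3.00 for RS4;11 and 0.48 for BV-173 on the log2 scale. After knockdown the same gap was 0.18, 0.33 and -0.14. Within the passenger complex BIRC5 (survivin) fell to 1.16% of control in RS4;11, the lowest share of any of the 48 genes, while INCENP, the scaffold, kept 14.3% there and 14.0% in NALM-6. CDCA8 (borealin) had a mean of -3.26. The centriole assembly factor CENPJ had a palbociclib mean of -1.90 (adjusted p = 0.0132) and a knockdown mean of -1.02 (adjusted p = 0.0189).

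By class, the median log2 ratio after palbociclib, again for NALM-6, then RS4;11 and then BV-173, was -2.07, -2.74 and -1.36 for constitutive centromere genes. It was -2.77, -3.93 and -1.75 for the outer kinetochore, -3.25, -4.12 and -1.44 for the checkpoint, and -2.95, -5.73 and -1.52 for the kinases and passenger complex. After knockdown the classes lay close together: the constitutive medians were -1.18, -1.47 and -0.42, and those of the outer kinetochore were -1.24, -1.59 and -0.65. The median of all listed genes was between -0.01 and 0.06 in the 6 comparisons.

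Set against the 29 outer kinetochore, checkpoint and kinase genes together, the 14 constitutive genes had a higher median after palbociclib in each line. The difference was 0.82 for NALM-6, 1.38 for RS4;11 and 0.21 for BV-173 on the log2 scale. After knockdown it was 0.06, 0.09 and 0.16, and it moved with class membership, to 0.003 in NALM-6 with the deposition genes counted as constitutive. These differences are descriptions without a test, since genes are not replicates, and both sides overlapped widely: in RS4;11 the palbociclib ratios of the constitutive genes ran from -6.22 to 0.12, and those of the outer kinetochore from -6.19 to -0.24.

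**Figure D4:**
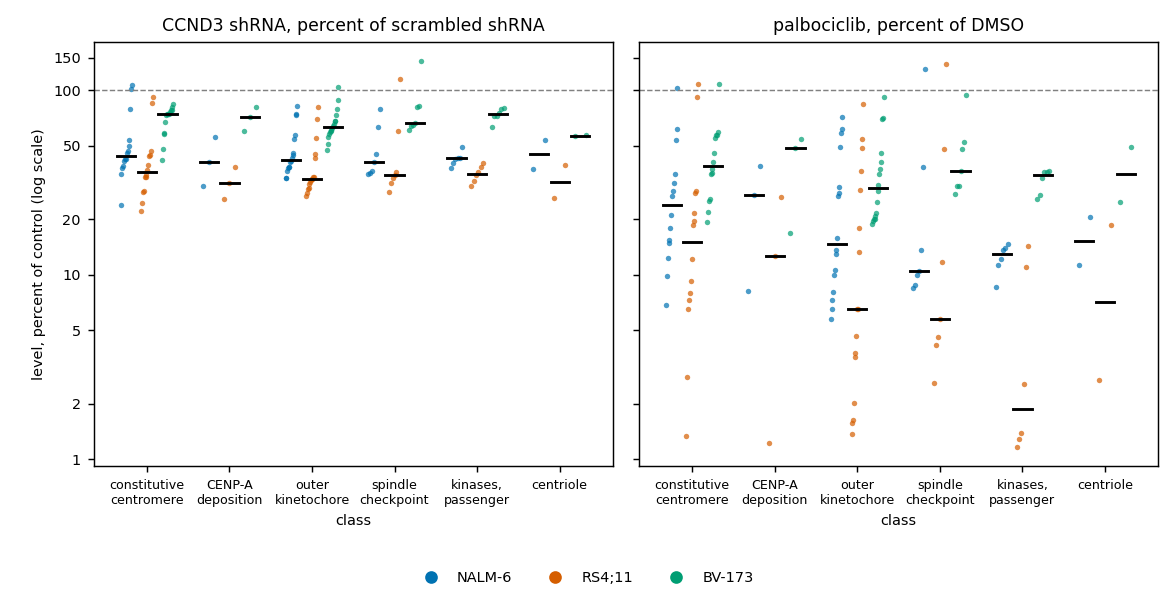
Level as a percent of the matched control, on a log scale, for each gene (points) by class and cell line, after CCND3 shRNA (left) and palbociclib (right), with black bars at the class median. After palbociclib the RS4;11 bar for the kinases and passenger complex is the lowest and that for the constitutive class is higher, while after knockdown the bars of all classes lie close together within a line.

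Levels at the start differed by class and are compared here per kilobase of the gene length listed in the table. With DMSO, the median of the kinases and passenger complex was 1516 per kilobase for NALM-6, 991.7 for RS4;11 and 869.4 for BV-173. For the spindle checkpoint it was 1129, 1157 and 874.1, above the kinases in RS4;11 and BV-173. For the outer kinetochore it was 548.2, 466.0 and 387.9, and for the deposition genes 708.0, 383.5 and 436.1. The constitutive centromere genes had 392.5, 327.8 and 267.3, and the centriole genes 368.0, 341.4 and 208.0. The highest level per kilobase was that of BUB3, at 3422, 3542 and 3243, and the lowest in BV-173 was that of CENPP at 44.8. Genes that were not called did not all have low levels: CENPT had 529.96 per kilobase in NALM-6 and PMF1 had 896.4, beside 751.5 for CENPA.

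What the promoters of these genes hold was read from RefSeq windows of GRCh38.p14, from 250 bases before to 50 after the annotated start. Windows were found for 39 of the 48 genes. No entry was found for CENPH, CENPL, CENPM, MIS18A, KNL1, BUB3, TTK, AURKA and BIRC5. Both strands were searched for the CHR element (the letters TTTGAA, with the variant TTTAAA and the further variant TTCGAA), an E2F element (TTTGGCGC, TTTCCCGC, TTTCGCGC or TTTGCCGC, or the same with the leading T left out) and the CCAAT box (CCAAT). Windows with a CHR match were 23 of 39 (59.0%), against 25.3% of all 27305 promoters in the table and 17.8% of the 10840 promoters of genes listed in all 6 tables. For CCAAT the shares were 61.5%, 35.7% and 36.6%, and for E2F 33.3%, 13.1% and 20.0%.

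By class, CHR matches were in 5 of 11 constitutive windows, 8 of 15 outer kinetochore windows, 4 of 5 checkpoint windows and 3 of 4 windows of the kinases and passenger complex. The 23 genes with a CHR match had a median palbociclib mean of -3.21 and a range from -4.17 (HJURP) to -0.52 (CENPC). The 16 without one had a median of -1.78 and a range from -3.92 (SPC24) to 0.26 (MAD1L1). Called lower after palbociclib were 22 of the 23 with a match and 12 of the 16 without, against 8.38% of all genes. For the E2F element the medians were -2.30 with and -2.78 without a match, and for CCAAT -2.58 with and -2.65 without. A match describes letters in a window and not a bound site, and the longer E2F words contain the shorter ones. The start used lay inside the annotated gene for 5 of the 39 (AURKB, CENPI, CENPJ, SGO1 and, by 14 bases, ZWINT), and apart from ZWINT the windows of these genes do not reach the outermost start.

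**Figure D5:**
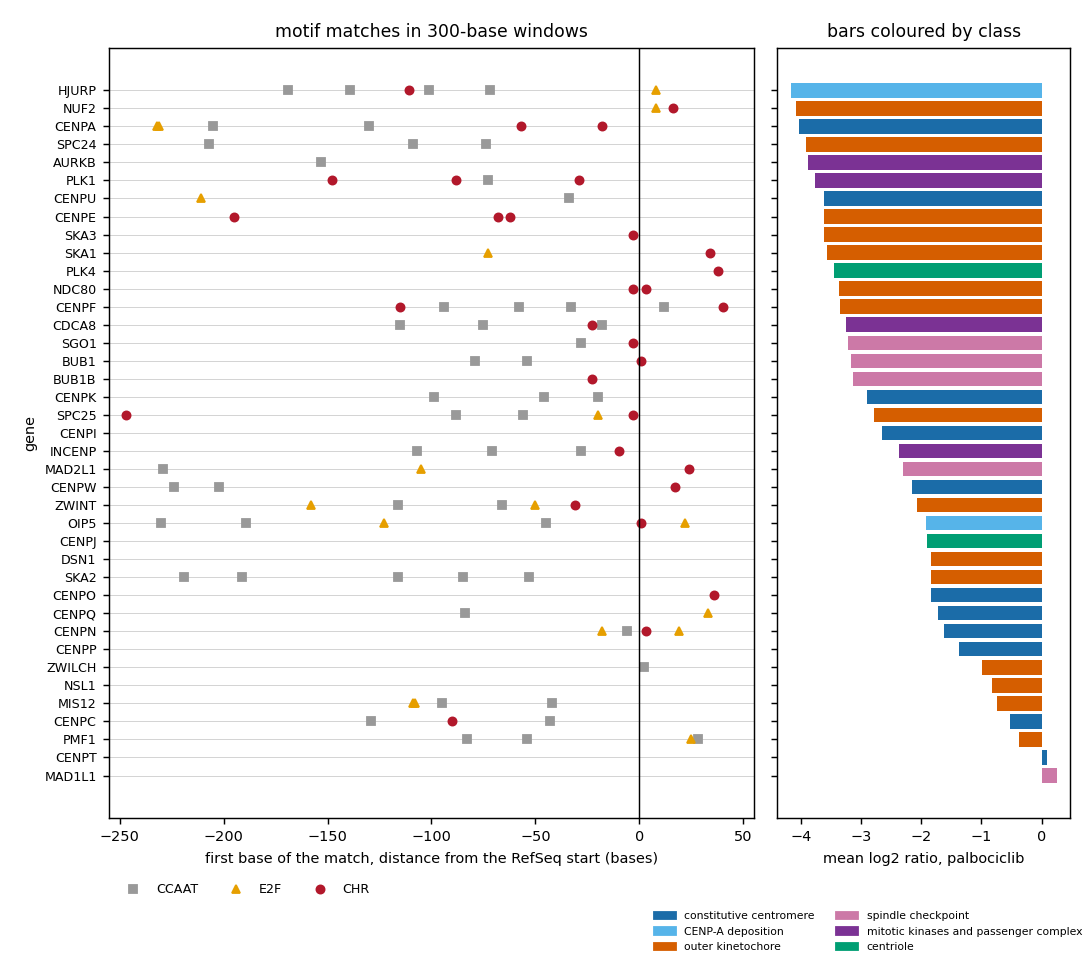
Left, matches of the CHR, E2F and CCAAT letters in the windows of 39 genes by distance from the RefSeq start, with genes sorted by mean palbociclib log2 ratio. Right, that ratio as bars coloured by class, from -4.17 (HJURP) to 0.26 (MAD1L1). CHR matches are marked for 23 of the 39 genes, and of the 7 genes at the bottom, from ZWILCH to MAD1L1, CENPC alone has one.

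The windows of 7 genes are printed from 120 bases before to 30 after the start, 5′ to 3′ on the strand of the gene, with CHR, E2F and CCAAT matches in capitals, as given by RefSeq on GRCh38.p14. Matches farther from the start than this stretch, such as the E2F matches of CENPA, are not shown. The 7 stretches show 1 called gene of each main class and 3 constitutive and checkpoint genes that were not called. PLK1, CENPA, BUB1B and NDC80 each carry a CHR match within 30 bases of the start. CENPC has its match at 90 bases before the start, and CENPT and MAD1L1 have no match of any of the motifs in their windows.
PLK1 (chr16:23678769-23678918, plus strand): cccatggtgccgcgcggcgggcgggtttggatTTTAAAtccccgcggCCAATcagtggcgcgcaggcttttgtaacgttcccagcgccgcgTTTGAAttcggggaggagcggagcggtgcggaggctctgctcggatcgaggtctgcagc
CENPA (chr2:26785936-26786085, plus strand): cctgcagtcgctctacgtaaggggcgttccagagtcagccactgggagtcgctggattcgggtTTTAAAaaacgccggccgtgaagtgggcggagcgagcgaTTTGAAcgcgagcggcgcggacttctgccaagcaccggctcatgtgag
BUB1B (chr15:40160949-40161098, plus strand): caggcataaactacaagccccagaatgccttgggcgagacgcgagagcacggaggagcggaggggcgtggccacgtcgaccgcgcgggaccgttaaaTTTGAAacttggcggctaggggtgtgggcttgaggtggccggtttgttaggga
NDC80 (chr18:2571437-2571586, plus strand): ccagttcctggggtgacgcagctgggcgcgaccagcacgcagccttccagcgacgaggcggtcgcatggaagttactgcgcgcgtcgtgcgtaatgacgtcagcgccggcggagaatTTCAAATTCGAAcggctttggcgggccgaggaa
CENPC (chr4:67545474-67545623, minus strand): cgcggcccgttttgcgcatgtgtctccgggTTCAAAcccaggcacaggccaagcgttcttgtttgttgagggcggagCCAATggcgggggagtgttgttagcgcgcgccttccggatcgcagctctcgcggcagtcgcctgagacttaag
CENPT (chr16:67847664-67847813, minus strand): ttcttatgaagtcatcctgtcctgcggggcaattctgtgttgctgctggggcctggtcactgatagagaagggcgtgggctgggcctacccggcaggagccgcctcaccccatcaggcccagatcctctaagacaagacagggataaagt
MAD1L1 (chr7:2232916-2233065, minus strand): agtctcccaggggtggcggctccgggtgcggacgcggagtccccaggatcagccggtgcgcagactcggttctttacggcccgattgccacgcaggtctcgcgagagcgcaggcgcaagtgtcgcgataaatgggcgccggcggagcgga

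A separate list of 32 other kinetochore and spindle genes moved in the same direction, with exceptions. Of the 31 listed in all tables (PLK2 was not), 20 were called lower after palbociclib and 15 after knockdown, and 0 higher. For this and the further lists, the shares of all genes were 8.38% lower and 5.14% higher after palbociclib. After knockdown they were 3.73% and 1.32%. The lowest palbociclib means were those of the kinase NEK2 (-4.26), the microtubule depolymerase KIF2C (-3.97) and cyclin B2, CCNB2 (-3.88). The highest were those of PLK3 (0.34), the spindle pole protein NUMA1 (0.34) and MAD2L1BP (0.14), which were not called. Of 20 replication licensing genes, 17 were called lower after palbociclib and 15 after knockdown, with medians of -2.10 and -1.13. Of 12 regulators of the cell cycle program, 5 were called lower and 1 higher after palbociclib, with a median of -0.47, and 6 lower and 0 higher after knockdown, CCND3 among them, with a median of -0.59. Those lower under both treatments were the transcription factors E2F1 (palbociclib mean -2.74), MYBL2 (-3.61) and FOXM1 (-3.73) and the MuvB subunits LIN9 (-1.69) and LIN54 (-1.25). CCND2, another D-type cyclin, was called higher after palbociclib (2.09, adjusted p = 0.0195). The MuvB subunits LIN37 (-0.08) and LIN52 (-0.49) and the genes RB1 (-0.45), CDK4 (-0.29) and CDK6 (0.55) were called under neither treatment. Of 10 housekeeping genes, 2 (HPRT1 and TBP) were called lower after palbociclib and 0 after knockdown, where the median was -0.08.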

How the data were processed

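Per the labels and the study's methods, RNA was sequenced from oligo-dT libraries, reads were filtered with SOAPnuke and mapped with Bowtie2 to hg38, gene levels were estimated with RSEM and groups were compared with DESeq2 (versions not stated). The deposited tables hold a signal made by the authors, 1 level per group and gene on a normalized count scale, scaled within each pair of groups. They also hold the authors' own fold changes and p-values for each line, which were set aside, so no test within a line is given. Each ratio was taken within 1 table. No level was 0, so the pseudocount was 0. Ratios of low genes are compressed: below a level of 1 their SD was 0.11 to 0.41, against 0.35 to 0.97 at levels of 100 to 1000. Mean levels of the 48 genes ran from 175.7 to 5334. Tests used limma 3.58.1 in R 4.3.3 with eBayes and a trend on mean log2 level, tested on simulated data. Genes were named by rule: CCND3, in each class the 2 lowest and 2 highest palbociclib means and the lowest and highest knockdown means, all genes of classes of up to 4, 5 pairs, and the 3 lowest and 3 highest of the other spindle genes. Further genes were named after their values were seen. Of the lineage markers, 1 is not reported here. Members and lists were chosen with earlier results of these data known. Alternatives were fold, adjusted p, level, pseudocount, prior, centring, class membership and lines.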

Additional observations from a re-analysis of the deposited data

Results flagged for a closer look

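MAD1L1 went in opposite directions between lines after CCND3 knockdown. Its log2 ratio was 0.53 in BV-173, with levels of 971.2 and then 1400, and -0.33 in NALM-6, with levels of 789.0 and then 625.9 (scrambled shRNA first). The ratios differ by 0.86. This difference was not tested. It stood out because 1 line was higher and another lower under the same treatment by more than a small minimum fold, which held for no other of the 48 genes.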

How the results depend on the processing

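No paired analysis was possible because the tables give 1 level per group and none per sample, and for the same reason no replicate could be left out. Cell lines were left out instead. Called genes numbered 43 of 48 for palbociclib, with 25 without the trend of the prior and 8 without NALM-6. For knockdown there were 38, with 0 at a pseudocount of 10, 0 without the trend and 21 without RS4;11. The difference between treatments gave 32, with 0 without the trend and 15 without NALM-6. Under the other alternatives these counts stayed between 40 and 44, 27 and 41, and 23 and 39. Calls over all genes fell too under the settings named, given here in the same order. For palbociclib they fell from 1799 to 836 and 301. For knockdown they fell from 673 to 0, 0 and 281, and for the difference from 605 to 0 and 211. Every called gene of the 48 had the direction given in the report. In BV-173 after knockdown, 21 genes were 1.5-fold lower, 3 were 2-fold lower and 39 were lower by a smaller minimum fold. The other counts by comparison and all class medians and contrasts averaged over lines moved by less than 1.5 times or 1 SD over the lines. The mean ratio of MAD1L1 changed sign to -0.065 after knockdown without BV-173, and its difference between treatments to 0.17 without NALM-6. Leaving a line out leaves 2 ratios. For the other changes the cause was not tested. Depth per sample is unknown, so no precision can be given for low levels, of which the lowest among the 48 genes was 8.36 (CENPA in RS4;11 with palbociclib).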
